A study of Mus musculus with 8 samples.

Results

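Trim29 and Nectin1 are adjacent protein-coding genes on mouse chromosome 9, and both were far above their usual level on a single array of a ROR1xTCL1 leukemia. The set described here holds 10 genes of that neighbourhood, of 16419 in the gene table: Tbcel, Grik4, Arhgef12, Tmem136 (now Tlcd5), Pou2f3, Oaf, Trim29, Nectin1 (deposited as Pvrl1), Thy1 and Usp2, in their order in the RefSeq annotation. They were matched by name, with current synonyms allowed, to the deposited names TBCEL, GRIK4, ARHGEF12, TMEM136, POU2F3, OAF, TRIM29, PVRL1, THY1 and USP2. 9 of the 10 have a row in the gene table, and Tmem136 was read from its 8 annotated probe sets. Trim29 and Nectin1 were chosen for their values on that array, so these are given as a description with no test. The other 8 genes were taken for their position.

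RNA of isolated leukemia cells was hybridised to Affymetrix Mouse Exon 1.0 ST arrays, 1 array a mouse. 4 mice carried the TCL1 transgene of the Eµ-TCL1 line, an oncogene driven in B cells from the immunoglobulin heavy chain enhancer, and 4 carried that transgene together with a ROR1 transgene. The TCL1 transgene is thus common to all 8 mice, and the groups differ by ROR1, a surface receptor for Wnt5a. Age, strain and the promoter of the ROR1 transgene are not given in the sources used here. All values are log2 (assumed for the gene table, whose scale is not stated), and each array was scaled so that a value says where a gene stands within that array. Columns of the gene table show the group but not the mouse, so its arrays are called a to d, while probe set columns carry replicate numbers 1 to 4; no letter was tied to a number.

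TRIM29 is a tripartite motif protein without a RING finger. It is best known from squamous epithelia and, in mouse macrophages, as a brake on innate immune signalling. Nectin-1 is an immunoglobulin-like adhesion molecule that binds the actin linker afadin and serves herpes simplex virus as an entry receptor. Genes that lie side by side can share enhancers, and a gained or lost segment of a chromosome changes the dose of every gene on it, so the neighbours show how far along the chromosome a shift in expression reaches. The files hold RNA values only, and a change in the DNA was not tested.

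Between Trim29 and Nectin1 the annotation of assembly GRCm38.p6 lists 6 genes, of which 5 are long non-coding RNAs and 1 is a pseudogene, with 0 protein-coding genes among them. None of these 6 has a named probe set here. From Tbcel to Usp2 it lists 29 genes, 10 of them protein-coding, and these 10 are the genes described. The 250 bases before the annotated start of the gene are shown for Oaf, the coding gene next to Trim29, and for Arhgef12 and Tbcel. These 3 neighbours were chosen because they were also highest on the array with the high Trim29. They are RefSeq sequences of GRCm38.p6, 5′ to 3′ on the minus strand that the genes are read from, and capitals mark matches to a searched motif.
Oaf, chr9:43239817-43240066: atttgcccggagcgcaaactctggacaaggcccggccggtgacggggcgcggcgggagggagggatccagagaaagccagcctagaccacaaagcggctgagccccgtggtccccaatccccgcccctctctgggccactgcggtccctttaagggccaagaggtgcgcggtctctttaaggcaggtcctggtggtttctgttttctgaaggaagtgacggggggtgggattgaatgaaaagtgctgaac
Arhgef12, chr9:43105719-43105968: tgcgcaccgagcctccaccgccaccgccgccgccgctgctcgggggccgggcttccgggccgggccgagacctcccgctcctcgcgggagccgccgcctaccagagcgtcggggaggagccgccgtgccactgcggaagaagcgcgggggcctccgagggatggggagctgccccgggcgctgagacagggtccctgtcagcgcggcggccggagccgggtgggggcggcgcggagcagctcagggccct
Tbcel, chr9:42472239-42472488: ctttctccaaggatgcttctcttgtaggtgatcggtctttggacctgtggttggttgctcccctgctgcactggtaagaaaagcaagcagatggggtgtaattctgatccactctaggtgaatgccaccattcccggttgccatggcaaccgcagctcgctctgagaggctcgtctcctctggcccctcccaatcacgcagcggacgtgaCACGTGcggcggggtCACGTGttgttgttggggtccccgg
3 motifs were searched on both strands: the octamer ATGCAAAT, read by POU2F factors, the GATA motif AGATAA, and the E-box CACGTG, none overlapping another. Only the E-box was found, with 2 matches in the window shown for Tbcel and 0 before Oaf and Arhgef12. Tbcel has further annotated starts inside the gene. Their windows, chr9:42461429-42461678 and chr9:42457601-42457850, each held 0 matches to the E-box. Of all 32851 windows of this length in the table, 6.02% hold the E-box, 9.99% the GATA motif and 1.60% the octamer. GC content was 62.0% for Oaf, 79.6% for Arhgef12 and 58.0% for Tbcel.

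Trim29 read 3.99, 4.29, 3.87 and 4.22 on TCL1 arrays a to d and 11.61, 4.29, 3.72 and 4.09 on ROR1xTCL1 arrays a to d. ROR1xTCL1 array a thus stood 7.53 log2 units above the median of the other 7 arrays and 7.32 above the next highest, while the other 3 ROR1xTCL1 arrays lay at 3.72 to 4.29, close to the 3.87 to 4.29 of the TCL1 arrays. The 4 TCL1 arrays averaged 4.09 ± 0.20 and the 4 ROR1xTCL1 arrays 5.93 ± 3.80 (SD), so that the means differed by 1.84 ± 1.56 (SE). Without array a it was -0.06, with ROR1xTCL1 at 4.03 ± 0.29 (SD, n = 3). On the other 7 arrays the gene was above the first quartile of all genes, which lay between 3.52 and 3.71, and below their median of 5.03 to 5.09. A level above background is not shown there.

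Nectin1 read 5.17, 5.73, 5.06 and 5.03 on TCL1 arrays a to d and 10.13, 6.73, 5.58 and 5.40 on ROR1xTCL1 arrays a to d. Array a was again the highest, by 4.74 over the median of the other 7. The next highest was ROR1xTCL1 array b, 3.41 below it and about 1 log2 unit above the highest TCL1 array, whereas arrays c and d fell within the TCL1 range. The 4 TCL1 arrays averaged 5.25 ± 0.33 and the 4 ROR1xTCL1 arrays 6.96 ± 2.20 (SD), so that the means differed by 1.71 ± 0.91 (SE). Without array a the difference was 0.66, with ROR1xTCL1 at 5.90 ± 0.72 (SD, n = 3).

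**Figure D1:**
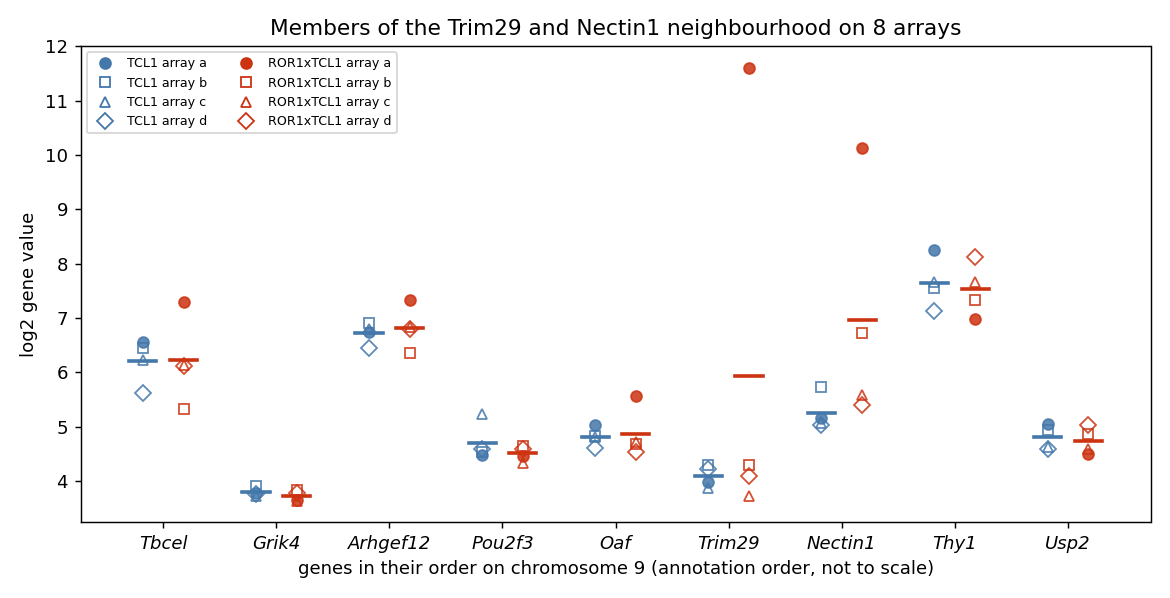
Log2 gene value of the 9 members in the gene table on each of the 8 arrays, TCL1 in blue and ROR1xTCL1 in red, with a bar at each group mean. Trim29 (11.61) and Nectin1 (10.13) on ROR1xTCL1 array a, the filled red circle, stand far above all other points of their genes, and the same array is highest by a smaller step for Tbcel, Arhgef12 and Oaf.

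At probe set level the high Trim29 signal covered all 12 probe sets of the gene. On ROR1xTCL1 replicate 1 they read 8.96 to 12.70, against 1.42 to 7.02 over the other 7 replicates. Each was highest on that replicate, by 1.94 to 8.99 over the next, with a median of 7.25 over the median of the other 7. Of all 1236087 probe sets, of which 907200 carry no gene name, 10.2% were highest on this replicate. Of all genes read as the mean of their probe sets it was 14.8%. No probe set of Trim29 was left at the level of the other mice. Positions of the probe sets along the transcript were not used here.

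Of the 17 probe sets of Nectin1, 15 were highest on ROR1xTCL1 replicate 1, and 13 of these by at least 1 log2 unit. Their median excess over the other 7 replicates was 4.58. The exceptions were 4396522, at 6.77 on replicate 1 with 6.28 to 7.67 on the others, and 4579186, at 5.48 with 4.55 to 5.56. ROR1xTCL1 replicate 2 was the second highest at 10 of the 17. The mean over the probe sets was 9.10 on replicate 1, 6.29 on replicate 2 and 4.93 to 5.56 on the other 6. Probe sets of a gene read the same RNA and are not replicates.

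**Figure D2:**
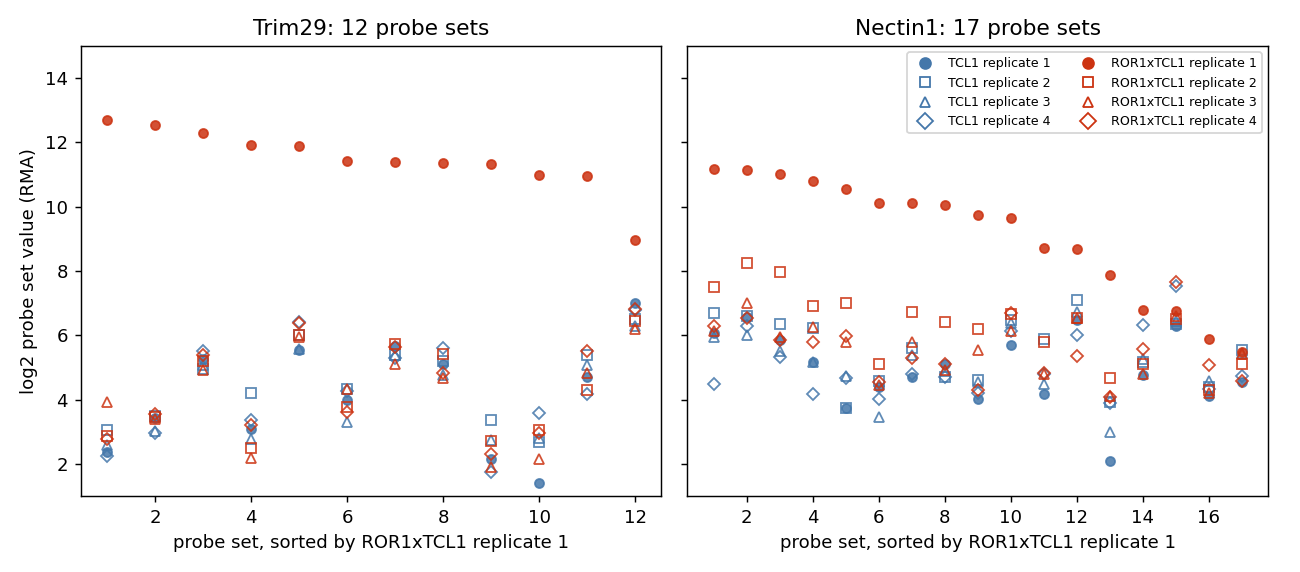
Log2 RMA value of each annotated probe set of Trim29 (left) and Nectin1 (right) in the 8 samples, sorted by ROR1xTCL1 replicate 1, the filled red circle. That replicate lies above the others at 12 of 12 and 15 of 17 probe sets, and the open red squares of ROR1xTCL1 replicate 2 come second at 10 of the 17 for Nectin1.

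On the side of Trim29 away from Nectin1 the neighbours differed among themselves. Oaf, the mouse counterpart of a secreted fly protein and the next coding gene, read 5.03, 4.82, 4.81 and 4.61 on TCL1 arrays a to d and 5.56, 4.68, 4.73 and 4.52 on ROR1xTCL1 arrays a to d. Array a was highest, by 0.83 over the median of the other 7. Pou2f3, the octamer-binding factor that specifies tuft cells, read 4.47, 4.53, 5.24 and 4.59 on TCL1 arrays and 4.46, 4.65, 4.33 and 4.58 on ROR1xTCL1 arrays. Its highest array was TCL1 array c, and array a lay 0.12 below the median of the others. The mean over the 8 probe sets of Tmem136, a TLC domain membrane protein, was 3.32 on ROR1xTCL1 replicate 1, inside the 3.18 to 4.02 of the other 7 replicates.

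Arhgef12, an exchange factor that links G12 and G13 proteins to RhoA, read 6.73, 6.92, 6.80 and 6.45 on TCL1 arrays a to d and 7.32, 6.35, 6.83 and 6.80 on ROR1xTCL1 arrays a to d. Grik4, a kainate-type glutamate receptor subunit, lay between 3.64 and 3.90 on all 8 arrays, close to the first quartile, with array a at 3.66. Tbcel, related to the tubulin folding cofactor E, read 6.56, 6.44, 6.23 and 5.61 on TCL1 arrays and 7.29, 5.33, 6.13 and 6.12 on ROR1xTCL1 arrays. Arhgef12 and Tbcel were both highest on array a, by 0.53 and 1.15 over the median of the other 7, and both were lowest on ROR1xTCL1 array b. Grik4, which lies between them, was not high on it.

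On the far side of Nectin1 both members were lowest on array a. Thy1, a surface protein of mouse T cells, read 8.25, 7.55, 7.66 and 7.12 on TCL1 arrays a to d and 6.99, 7.33, 7.66 and 8.12 on ROR1xTCL1 arrays a to d. Usp2, a deubiquitinating enzyme, read 5.05, 4.94, 4.63 and 4.59 on TCL1 arrays and 4.50, 4.86, 4.58 and 5.03 on ROR1xTCL1 arrays. Array a lay 0.67 and 0.36 below the median of the other 7. In bulk RNA, fewer cells of a type and less RNA per cell cannot be told apart, which bears on Thy1 in particular: array a also had the lowest T cell marker level, a mean of 6.40 over 11 markers (Thy1 is 1 of them) against 6.46 to 7.53, and the part of T cells in this value was not tested.

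The probe sets followed the gene table. On ROR1xTCL1 replicate 1, 12 of 14 probe sets of Tbcel, 43 of 53 of Arhgef12 and 4 of 8 of Oaf were the highest of the 8 samples, with median excesses over the other 7 of 1.21, 0.65 and 0.78. For the remaining members it was 0 of 24 for Grik4, 1 of 8 for Tmem136, 1 of 19 for Pou2f3, 0 of 9 for Thy1 and 1 of 25 for Usp2. The long non-coding gene D630033O11Rik, annotated between Oaf and Trim29 and named here after its values were seen, has 6 probe sets. Their mean was 3.34 on replicate 1 and 3.49 to 3.93 on the other 7, and 0 of 6 were highest on replicate 1. The closest annotated gene before Trim29 with probe sets thus showed no rise on replicate 1. Its mean lay near the median of all probe sets, 3.61 to 3.66 over the samples, so a level above background is not shown. The brightest of its probe sets, 4721319, was at 6.21 on replicate 1 and 5.92 to 6.32 on the others.

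Across the 39 measured genes from 15 before Tbcel to 15 after Usp2, 10 were highest on ROR1xTCL1 array a, or 8 of 37 without Trim29 and Nectin1, where 8.97% of all genes are. In the same stretch 11 of 37 were lowest on that array, where 16% of all genes are. The median excess of the whole 37 was -0.15, against -0.05 for all genes. On the other arrays the count of highest genes among the 37 was 3, 9, 3 and 1 on TCL1 arrays a to d and 8, 1 and 4 on ROR1xTCL1 arrays b to d. The arrays with 9 and 8, TCL1 array b and ROR1xTCL1 array b, were also highest for larger shares of all genes, 12.6% and 18.3%. TCL1 arrays c and d had similar shares, 12.3% and 18.4%, with counts of 3 and 1, so the count did not follow the share. The 5 measured genes before Trim29 held 3 that were highest on array a, and the 5 after Nectin1 held 0. From Tbcel to Oaf high and low genes alternated, while the 8 measured genes from Gramd1b to Tecta were all below the median of the other arrays. No neighbour came near the excess of Trim29 or Nectin1.

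Among the 30 genes of the stretch that are no member, Abcg4, Slc37a4, H2ax and Scn3b were among the 5 with the largest excess on array a. Excesses were 1.32 for the transporter gene Abcg4, 1.25 for the glucose-6-phosphate transporter gene Slc37a4, 0.91 for the histone variant gene H2ax and 0.59 for the sodium channel subunit gene Scn3b. The lowest were Ubash3b, a phosphatase that dampens T cell receptor signalling, at -1.42, the olfactory receptor gene Olfr985 at -0.62 and the sterol desaturase gene Sc5d at -0.56. Between Nectin1 and Abcg4 lie 8 measured genes, all below the median of the other 7 arrays on array a.

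**Figure D3:**
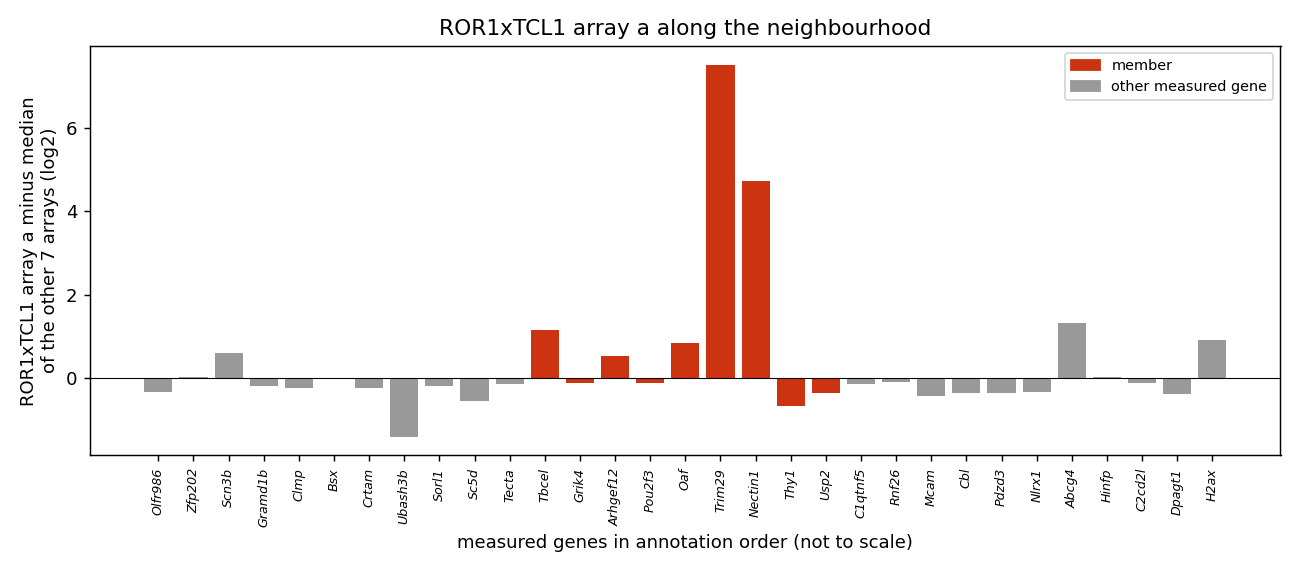
Value on ROR1xTCL1 array a minus the median of the other 7 arrays (log2) for 31 measured genes in annotation order, from 11 before Tbcel to 11 after Usp2, members in red. Trim29 (7.53) and Nectin1 (4.74) stand side by side, with lower values on either side.

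Along the whole chromosome a running median showed no broad shift beside the 2 genes. The running median of 21 genes was -0.16 in the window centred on Trim29 on array a, and it ranged from -0.19 to 0.11 over the 966 measured genes of chromosome 9. On the other 7 arrays the window centred on Trim29 read -0.11 to 0.21. Over all chromosomes except Y, array a ranged from -0.34 to 0.38. A window of 21 genes does not resolve a segment of a few genes. Genes of low signal count equally in it and might not show a shift. The olfactory receptor gene Olfr983, for example, was at 2.32 on array a and 1.77 to 3.06 on the others.

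**Figure D4:**
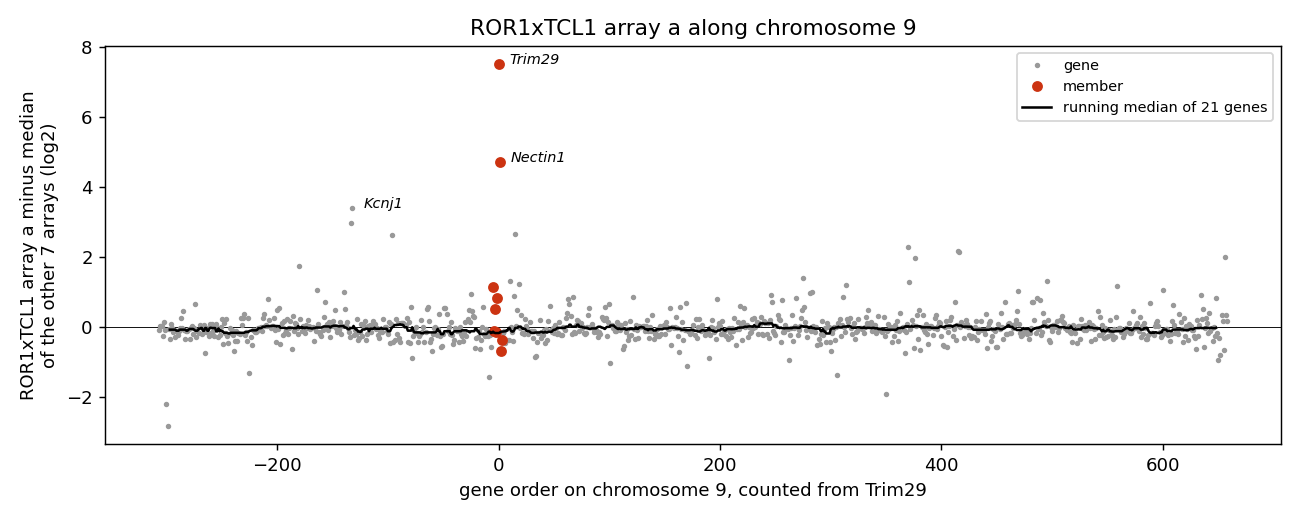
Value on ROR1xTCL1 array a minus the median of the other 7 arrays (log2) for 966 genes in their order on chromosome 9, with the running median of 21 genes in black and members in red. The running median stays between -0.19 and 0.11, while Trim29, Nectin1 and Kcnj1 stand far above it; other high points carry no name.

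The array with the high Trim29 also had the highest erythroid marker level. All 11 measured erythroid markers were highest on it, with a mean of 9.12 against 6.41 to 7.75 on the other 7. As a score, the mean deviation from each gene's average over the 8 arrays, this was 1.81 on array a, then 0.44, 0.40 and 0.03 on TCL1 arrays a, b and c, -0.34 on ROR1xTCL1 array c, -0.61 on TCL1 array d, -0.84 on ROR1xTCL1 array d and -0.90 on ROR1xTCL1 array b. Tbcel had the same order on the 5 highest arrays and the same lowest array. Oaf also had that order on the 5 highest arrays, with ROR1xTCL1 array d the lowest. Arhgef12 did not have it, although its highest and lowest arrays were those of the score. It was 6.73 on TCL1 array a, which had the second highest score, and 6.80 on ROR1xTCL1 array d. Trim29 on the other 7 arrays lay between 3.72 and 4.29, below the median of all genes, where a level above background is not shown. It was 3.99 and 4.29 on TCL1 arrays a and b, which had the next highest scores. On ROR1xTCL1 array c it was 3.72, and on ROR1xTCL1 array b, which had the lowest score, 4.29. At this level no relation to the score was read in either direction. Nectin1 was second highest on ROR1xTCL1 array b, which had the lowest erythroid score. The part of erythroid cells in the Trim29, Nectin1, Tbcel, Arhgef12 and Oaf values was not tested.

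**Figure D5:**
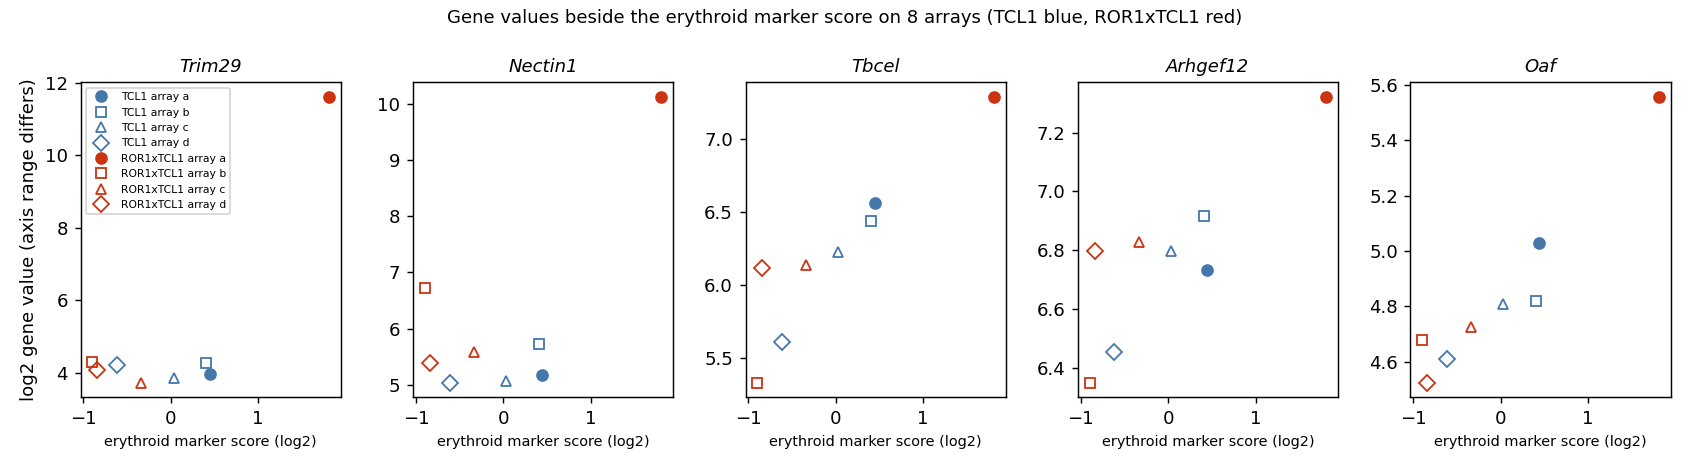
Log2 gene value of Trim29, Nectin1, Tbcel, Arhgef12 and Oaf against the erythroid marker score (mean log2 deviation of 11 markers) on 8 arrays, TCL1 blue and ROR1xTCL1 red, with a separate vertical range in each panel. ROR1xTCL1 array a, the filled red circle, is at the right (1.81) and top of every panel. Among the other 7 arrays Tbcel and Oaf are mostly higher at higher scores, while Arhgef12 does not have the order of the scores. Trim29 stays between 3.72 and 4.29 on them.

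In the probe set table the erythroid score was highest on ROR1xTCL1 replicate 1 as well, at 1.59 against at most 0.37, with 9 of 9 measured markers highest there. Marker lists of epithelial and tuft cells, known sites of Trim29, Nectin1 or Pou2f3 expression, had mean levels on array a inside the range of the other arrays. Of 22 measured epithelial and squamous markers 3 were highest on array a (Epcam, Cdh1 and Grhl2), and the mean level of the list was 4.22 there and 4.17 to 4.33 on the others. None of the keratin genes measured, among them Krt5 and Krt14 of squamous epithelium, was highest on it, and 8 of the 22 genes averaged below the first quartile. Epcam, an epithelial adhesion molecule, was at 7.16 against 4.74 to 6.82. Of 8 tuft cell markers 1 was highest on array a (Gfi1b, which erythroid cells use too, at 7.14 against 5.75 to 6.73), and their mean level was 5.17 against 5.13 to 5.63. Monocyte and macrophage markers were high on array a: all 10 measured lay above the median of the other 7 arrays, by a median of 0.86, and 3 were highest there. Their mean level was 6.98 on array a and 5.39 to 7.34 on the others, with TCL1 array a alone above it. The part of macrophages in the Trim29 value was not tested. Stromal and endothelial markers read 4.34 against 4.17 to 4.34, with 4 of 12 highest there, and granulocyte markers 5.79 against 4.87 to 8.69. B cell markers, which check the labelled leukemia, had a mean of 9.68 to 9.98 on all 8 arrays, and array a had the lowest.

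In the list of nectins, nectin-like molecules and partners, 12 of 16 genes were measured. Of these 0 passed in either direction, as for all genes (0%), and 2 were highest on array a, Nectin1 among them, where 8.97% of all genes are. Nectin3 lay at 2.89 on array a and 2.55 to 2.96 on the others, and Nectin4 at 4.49 and 4.26 to 4.85. Cd226, Cd96 and Crtam, receptors of lymphocytes for nectins and nectin-like molecules, differed between the groups by 0.22 ± 0.33, -0.15 ± 0.45 and -0.50 ± 0.35 (SE). The median difference of the list was 0.00.

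Of 11 reported partners of TRIM29 all were measured and 0 passed, again as for all genes, and 1 was highest on array a, the ubiquitin ligase gene Rnf8. Sting1, the DNA sensing adaptor, was 7.69 on array a and 7.37 to 8.22 on the others, and Mavs, the adaptor of RNA sensing, 7.22 and 6.83 to 8.08. Beta-catenin (Ctnnb1) differed between the groups by 0.38 ± 0.23 (SE). Of 6 related TRIM genes 0 passed and 0 were highest on array a. Trim25, which ubiquitinates the RNA sensor RIG-I, differed by 0.20 ± 0.19, Trim44 by 0.32 ± 0.16, Trim47 by 0.06 ± 0.18 and Trim65 by 0.32 ± 0.26 (SE).

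Between ROR1xTCL1 and TCL1 none of the 7 members of the gene table taken for their position differed beyond the spread of the arrays. Trim29 and Nectin1 were chosen on these values, so no verdict is given for them. Across all genes measured, 0 of 16419 passed (0%; limma, adjusted p under 0.05), with 268 at an unadjusted p under 0.05, and of the probe sets 0 passed (0%) with 40767 at an unadjusted p under 0.05. The groups overlapped for all 9 members, while 1.1% of all genes do not overlap: 0.359% with every ROR1xTCL1 array above every TCL1 array and 0.737% with every one below. Differences of the members taken for their position ran from -0.20 ± 0.18 for Pou2f3 to 0.10 ± 0.20 for Arhgef12 (SE, limma adjusted p = 1.0 for each). Half-widths of their 95% intervals ran from 0.22 for Grik4 to 0.86 for Tbcel. The small group differences of Oaf (0.05 ± 0.22), Arhgef12 and Tbcel (0.01 ± 0.38) contained array a: without it they were -0.17, -0.07 and -0.35.

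By Pearson r over the 8 arrays, the genes most like Trim29 among those with a range of at least 2 log2 units were Siglec1 (0.98), Clca1 (0.96), Nectin1 (0.96), Rps4l, deposited as RPS4Y2 (0.95), Kcnj1 (0.94), Olfr20 (0.92), Gata1 (0.91) and Tinagl1 (0.91). These values describe array a, which chose Trim29: each of the 8 genes was highest there and reached the range only through it. Over the other 7 arrays r was 0.77 for Siglec1, -0.28 for Clca1, 0.44 for Nectin1, 0.45 for Rps4l, 0.06 for Kcnj1, 0.03 for Olfr20, -0.43 for Gata1 and -0.30 for Tinagl1. Nectin1 had the widest range of the 8, at 5.11 log2 units, followed by the potassium channel gene Kcnj1 at 4.31, and both lie on chromosome 9.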

How the data were processed

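The labels describe the authors' deposited probe set values as RMA values from oligo, and they are on a log2 scale; the submitters' processing notes list R 2.15.1. The deposited gene table gives no scale, and log2 was assumed because of the range of its values; the design text credits the Exon Array Computational Tool of Affymetrix, and how probe sets were combined per gene is not stated. Array normalization of this kind removes differences in total signal. Of 16495 rows, 4 carried a number in place of a name and were dropped, and 72 repeated names were averaged, which left 16419 genes. 14742 matched a symbol and 1453 a synonym in RefSeq GRCm38.p6, used for names and gene order only; printed coordinates are those of the RefSeq promoter table. Of 1236087 probe sets, 321091 had 1 gene symbol. Sample columns not mapped numbered 0.

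Differences were tested with limma (version 3.58.1, R 4.3.3; lmFit and eBayes, 2-sided, Benjamini-Hochberg over all features), checked on simulated data. With 4 arrays a group, a gene's 95% interval had a median half-width of 0.34. The p-values measure the spread between mice. The members, gene lists and naming rules were chosen with earlier results of these data known. The text names all members, the 5 neighbours of largest and 3 of lowest excess on the array with the highest Trim29, the coding neighbours of Trim29 and Nectin1, the 8 genes most like Trim29 and up to 4 genes of widest range per pathway list; other names were chosen after their values were seen. Some genes under these rules are not reported here.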

Additional observations from a re-analysis of the deposited data

Results flagged for a closer look

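Each group of 4 arrays was searched for a value far from the other 3, over the 9 members of the gene table and the 10 members as means of their probe sets. 4 of 38 groups held one (Dixon's ratio above 0.829). 2 of the 4 are Trim29, which was chosen for this value and is counted in both tables. Without the groups of Trim29 it was 2 of 34, and chance gives about 1 in 20. Every member with a row in the gene table is counted in both. The groups are therefore not independent, and the count cannot be held strictly against that rate. Trim29 was at 11.61 on ROR1xTCL1 array a with the other 3 arrays of its group at 3.72 to 4.29 (ratio 0.93), and at 11.48 on ROR1xTCL1 replicate 1 with the others at 4.14 to 4.42 (ratio 0.96). Pou2f3 was at 5.24 on TCL1 array c with the others at 4.47 to 4.59 (ratio 0.85). Arhgef12 was at 6.25 on TCL1 replicate 4 as a mean of probe sets, below the 6.83 to 6.93 of the others (ratio 0.85). Neither gene passed in the other table. As a mean of probe sets Pou2f3 was at 5.07 on TCL1 replicate 3, with the others at 4.11 to 4.42. In the gene table Arhgef12 was at 6.45 on TCL1 array d, with the others at 6.73 to 6.92. Nectin1 on ROR1xTCL1 array a did not pass this criterion, with array b of its group at 6.73.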

How the results depend on the processing

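The count of genes past the threshold was 0 under all 15 alternatives run. Probe sets past it were 0 in the fit described and 1 with trend and robust estimation, 0 with a filter on dim probe sets and 0 with a replicate block; leaving out 1 sample gave 0 to 2, with 2 without TCL1 replicate 4 and 2 without ROR1xTCL1 replicate 1. The Trim29 difference of 1.84 was 1.79 from the mean of probe sets and 1.79 with a replicate block on those, and -0.06 to 2.57 with 1 array left out, the lowest without ROR1xTCL1 array a. The Nectin1 difference of 1.71 was 1.43 and 1.43 in the same fits, and 0.66 to 2.24 with 1 array left out, again lowest without array a. Same-numbered samples did not deviate together in every pair (r = 0.27, -0.0039, 0.24 and 0.10), so the numbers were not used as pairs, and no block changed a call. The count of neighbouring genes highest on the array with the highest Trim29 was 10 of 39 in the text, 9 of 33 with a filter on dim genes, 12 of 37 from the mean and 13 of 37 from the median of probe sets, where 14.8% and 14.5% of all genes were highest on that sample. With 5 genes beyond each end it was 5 of 19, and with 30 it was 12 of 69. All of these counts include Trim29 and Nectin1, which were chosen for their values on that array. Without the pair the 10 of 39 was 8 of 37. The 5 of 19 are all members, the pair among them. Depth does not apply to arrays. Outside array a Trim29 lies between the first quartile and the median of all genes, and Grik4 lies near the first quartile. Signal above background is not shown for either there.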

Other observations

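On ROR1xTCL1 array a 4 genes stood at least 2 log2 units above every other array. Trim29 and Nectin1 were chosen for this and for their place on chromosome 9. The others were Kcnj1, a renal potassium channel gene also on chromosome 9, which holds 966 of the 16419 genes, and the aquaporin gene Aqp12 on chromosome 1, at 9.12 against at most 6.79. Between 1 and 6 genes did so on each of the other 7 arrays, of which 1 lies on chromosome 9, Prss50 on TCL1 array d. Kcnj1 comes 132 measured genes before Trim29 in the annotation. It was at 8.92 on array a and 4.61 to 5.86 on the others. Its neighbour Kcnj5, of the same channel family, was at 7.93 on array a but at 8.15 on TCL1 array c and 6.42 on TCL1 array b, and 3.94 to 5.23 on the remaining 5. Fli1, on the other side, was at 8.55 on array a, inside the 7.84 to 9.14 of the others. All of these were chosen after their values were seen, and no cause was tested.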
